A study of Bos taurus with 8 samples.

Results

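The family of miR-130, miR-301 and miR-454 is a group of microRNAs (miRNAs) that share a seed, the stretch near the 5′ end of a mature miRNA that pairs with target messenger RNAs. Its members were taken by name from the deposited table of raw reads. They are bta-miR-130a, bta-miR-130b, bta-miR-301a, bta-miR-301b and bta-miR-454, so 5 of the 704 miRNA names. miRNAs guide Argonaute proteins to messages and dampen their translation or stability, and miRNAs with the same seed can bind largely the same targets. Members of this family are known from work in human and mouse cells to act on messages such as PPARG, a regulator of fat cell formation, and miR-130a on regulators of blood vessel growth in human endothelial cells. Cells release miRNAs into plasma in vesicles and protein complexes, so that plasma holds miRNAs of blood cells together with those of other tissues.

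Blood came from 4 healthy, non-pregnant, cycling Holstein-Friesian cross heifers in the second or the third year of life, numbered 44 to 47, and no treatment is named. Each animal gave a plasma library and a blood cell library, 4 of each and 8 in all, and the question was how miRNAs differ between the fractions. Plasma (700 μL) had been cleared of cells by centrifugation and filtration. The blood cell fraction (250 μL of suspension) was a pellet of red blood cells and buffy coat together, so its RNA is that of a mixture of cell types. In such bulk samples, fewer cells of a type and less RNA per cell cannot be told apart. The plasma libraries held 1453384 to 4296460 miRNA reads and the blood cell libraries 11169204 to 14471979. The red blood cell miRNAs miR-451, miR-486 and miR-144 together took 8.92% to 18.0% of the bovine miRNA reads in plasma and 48.8% to 56.1% in blood cells. All 3 were found in all 8 libraries. The leukocyte miRNAs miR-142-5p, miR-223, miR-150 and miR-155 together took 3.12% to 6.6% of these reads in plasma and 2.27% to 2.84% in blood cells. Both marker lists thus moved with the fraction as shares of reads. In the TMM-scaled edgeR fit described below, miR-142-5p was lower in plasma (log2 fold change -0.78, edgeR adjusted p = 0.00235). The other leukocyte miRNAs were not called there, with miR-223 at -0.42, miR-150 at -0.09 and miR-155 at 0.08. The part of both lists in the differences of the members was not tested. The endothelial miR-126 arms summed to 5129 to 9762 RPMM in plasma libraries and to 15.5 to 26.7 RPMM in those of blood cells. RPMM is the deposited value, reads per 1000000 reads mapped to bovine miRNAs. The part of endothelial miRNAs in the differences of the members was not tested.

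The members lie at 3 places in the bovine genome, and 2 of these places hold a pair of them. In the authors' table (genome build bosTau4), bta-miR-130a is on chromosome 15 (chr15:81392343-81392364, plus strand), with no other name of the table within 50 kb. On chromosome 17, bta-miR-130b (chr17:75467538-75467559) and bta-miR-301b (chr17:75467857-75467881) lie on the minus strand with 297 bases between them. On chromosome 19, bta-miR-301a (chr19:9367748-9367772) and bta-miR-454 (chr19:9358106-9358128) lie on the minus strand with 9619 bases between them. The listed mature forms are 22 bases long for both miR-130 members, 23 for bta-miR-454 and 25 for both miR-301 members. In the RefSeq gene table of the newer assembly ARS-UCD2.0, MIR301A and MIR454 lie within the bounds of SKA2, a gene of the spindle and kinetochore complex that hosts them in humans too. In that assembly MIR130B and MIR301B are neighbours between LOC101905136 and SDF2L1, and MIR130A lies between LOC112441661 and YPEL4. The pairs come from separate loci, so the like-named miR-130a and miR-130b, and miR-301a and miR-301b, are products of different places.

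All 5 members had more than 10 reads in all 8 libraries, and they spread over a wide range of fold changes between the fractions. bta-miR-130a was far more abundant in plasma, bta-miR-130b and bta-miR-301b were moderately more abundant there, bta-miR-301a had about the same RPMM in both fractions and bta-miR-454 was far more abundant in blood cells. The read counts went into edgeR's quasi-likelihood test, in which the cow was a block. Libraries were scaled by TMM, which sets the bulk of names level between libraries, and a name was called at an adjusted p under 0.05. A name had to reach 25 RPMM in 3 or more libraries of plasma or of blood cells to be tested, which 209 did. Of the 5 members, 3 were called higher in plasma, where 45.5% of the tested names were, and 2 lower, where 39.7% were. In either direction 5 of 5 members were called, against 85.2% of all names tested, so the number of calls is near that of the whole table. Of the 5, bta-miR-130a passed the filter through plasma alone, and bta-miR-454 did so through blood cells alone. Their log2 fold changes ran over a span of 9.35, with a median of 0.59, beside a median of 0.08 over all 209 names and quartiles of -2.21 and 3.09.

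**Figure D1:**
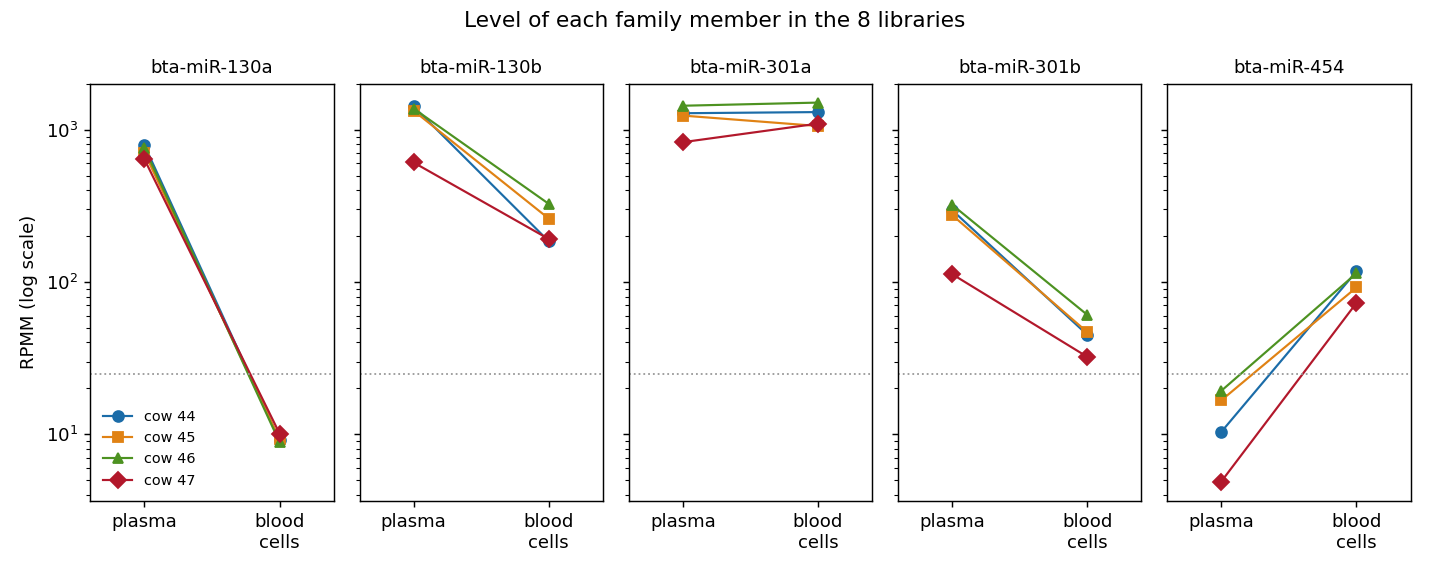
Level of each member in RPMM (log scale) in plasma and in blood cells, with a line joining the libraries of each cow and a dotted line at the filter of 25 RPMM. bta-miR-454 lies below the filter in all 4 plasma libraries and bta-miR-130a in all 4 blood cell libraries, while the lines of bta-miR-301a are almost flat.

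bta-miR-130a had the largest positive fold change of the family. In plasma it had 793, 707, 756 and 640 RPMM in cows 44 to 47, and in blood cells 9.12, 9.25, 8.83 and 10.1 RPMM. The fractions did not overlap, and both were tight, averaging 724 ± 66.2 RPMM in plasma libraries and 9.32 ± 0.53 RPMM in blood cell libraries (SD, n = 4 each). The ratio of the mean RPMM was 77.7. The log2 fold change was 4.60 (standard error 0.17, edgeR adjusted p = 4.02e-06), higher in plasma in 4 of 4 cows, and 32 of the 209 names had a larger one. The per-cow log2 differences on the TMM scale lay between 4.52 and 4.71, a narrower range than for any other member. The blood cell values rest on 102 to 134 reads per library.

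bta-miR-130b and bta-miR-301b, the neighbours on chromosome 17, were both called higher in plasma by a small margin. bta-miR-130b had 1420, 1333, 1376 and 609 RPMM in plasma of cows 44 to 47, against 185, 260, 325 and 191 RPMM in blood cells. Its RPMM did not overlap between the fractions, with 1185 ± 385 in plasma and 240 ± 66.2 in the blood cell fraction (SD, n = 4 each), a ratio of 4.93. After TMM scaling, bta-miR-130b ranged from 426 to 724 counts per 1000000 (CPM) in plasma and from 307 to 616 in blood cells, so that the fractions overlapped. Its log2 fold change was 0.59 (standard error 0.22, edgeR adjusted p = 0.0406), higher in 4 of 4 cows. This call was lost without cow 44 (log2 fold change 0.38, adjusted p = 0.16 from the same test) and without cow 45 (0.55, 0.111), and it was lost in the fit without the block for the cow (0.58, 0.062).

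bta-miR-301b was the scarcer of the chromosome 17 pair in both fractions. It had 297, 276, 322 and 113 RPMM in plasma of cows 44 to 47, against 45.0, 46.8, 60.8 and 32.2 RPMM in blood cells. In RPMM, the lowest plasma library, that of cow 47, was still above the highest blood cell library. After TMM scaling the fractions overlapped, at 78.7 to 169 CPM in plasma and 62.1 to 115 in blood cells. The means were 252 ± 94.6 RPMM in plasma and 46.2 ± 11.7 RPMM in the blood cell fraction (SD, n = 4 each), a ratio of 5.44. The log2 fold change was 0.70 (standard error 0.18, edgeR adjusted p = 0.0104), higher in 4 of 4 cows, and it held when any single cow was left out, at 0.60 to 0.86. Per cow it was 0.99, 0.91, 0.56 and 0.34 on the TMM scale, against 1.21, 0.71, 0.23 and 0.21 for bta-miR-130b. The neighbours thus gave the same order of cows. So did bta-miR-130a from chromosome 15, at 4.71, 4.61, 4.57 and 4.52, so the order is not particular to the neighbours. bta-miR-301a and bta-miR-454 gave other orders.

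bta-miR-301a, made from the SKA2 locus, was the most abundant member in blood cells and level with bta-miR-130b at the top in plasma. It had 1282, 1238, 1436 and 828 RPMM in plasma of cows 44 to 47, against 1305, 1057, 1506 and 1096 RPMM in blood cells. The fractions overlapped in RPMM, with means of 1196 ± 260 in plasma and 1241 ± 208 in the blood cell fraction (SD, n = 4 each), and plasma was the lower one in 3 of 4 cows. After TMM scaling the fractions were apart, at 579 to 756 CPM in plasma and 1775 to 2850 in blood cells. The log2 fold change was -1.74 (standard error 0.15, edgeR adjusted p = 5.19e-05), lower in plasma in 4 of 4 cows. With library totals alone as the scaling it was -0.068 and not called (edgeR adjusted p = 0.707), so whether bta-miR-301a is called depends on how libraries are set level.

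bta-miR-454, the other miRNA of the SKA2 locus, was the member with the largest fold change towards blood cells. It had 10.3, 16.7, 19.2 and 4.87 RPMM in plasma of cows 44 to 47, against 117, 92.0, 114 and 72.7 RPMM in blood cells. The fractions were well apart, with 12.8 ± 6.46 RPMM in plasma and 99.0 ± 20.8 RPMM in the blood cell fraction (SD, n = 4 each), a mean that was 7.75 times as high in blood cells. The plasma values rest on 15, 53, 35 and 21 reads, and 95% exact Poisson intervals reached from 3.02 RPMM (the lower limit in cow 47) to 26.8 RPMM (the upper limit in cow 46), which cover counting error only. The log2 fold change was -4.74 (standard error 0.30, edgeR adjusted p = 1.27e-05), lower in plasma in 4 of 4 cows, with 200 of the 209 names above it. Its RPMM was the most variable of the family in plasma, with a coefficient of variation of 50.6%. In blood cells that of bta-miR-454 was 21%, below the 27.5% of bta-miR-130b and the 25.3% of bta-miR-301b.

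In RPMM, 4 of the 5 members were apart between the fractions, against 87.1% of the tested names. The members that overlapped were not the same on both scales, since bta-miR-301a overlapped in RPMM and bta-miR-130b and bta-miR-301b did so after TMM scaling. No share over all tested names is given for the TMM scale, so the overlap there is a description only. With library totals in place of TMM, the median log2 fold change of all 209 names went up by 1.67. Set against that median, bta-miR-130a stood 4.52 above it with TMM and 4.52 above it with library totals, bta-miR-130b 0.51 and 0.51, and bta-miR-301b 0.62 and 0.62. bta-miR-301a stood 1.82 below it under both scalings, and bta-miR-454 stood 4.83 below it with TMM and 4.81 with library totals. These distances had to be nearly the same under both, since a change of scaling shifts all names by almost the same amount, and so had the places of the members among the 209 names (33, 91, 95, 150 and 201).

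**Figure D2:**
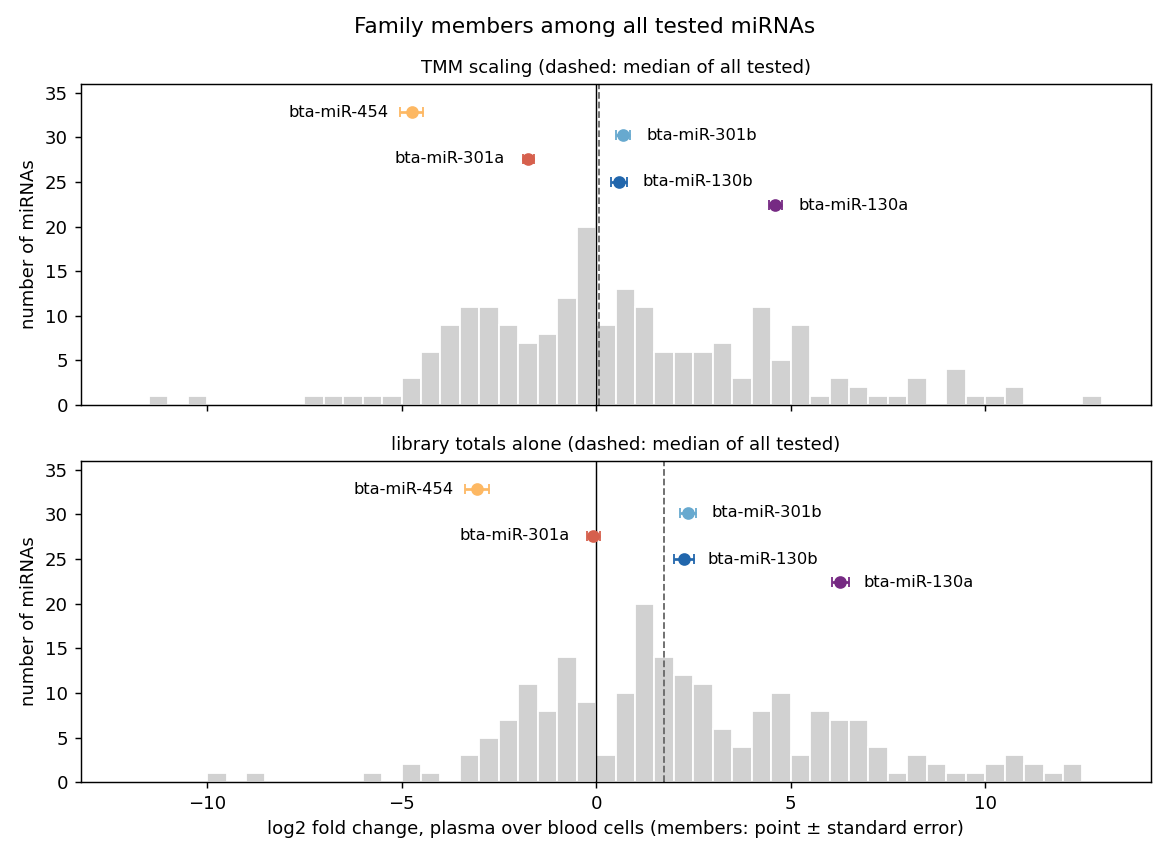
Log2 fold change (plasma over blood cells) for the 5 members (points, with bars of 1 standard error) above the distribution of the 209 tested miRNAs (grey, number of miRNAs per bin of 0.5), with TMM scaling (top) and with library totals alone (bottom). The dashed median is 0.08 at the top and 1.76 at the bottom, and bta-miR-301a lies left of the solid line at 0 in the top panel (-1.74) and on it in the bottom one (-0.068).

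Summed over the 5 members, the family took 0.380%, 0.357%, 0.391% and 0.219% of bovine miRNA reads in plasma of cows 44 to 47. In blood cells it took 0.166%, 0.147%, 0.202% and 0.140% of such reads. The sum was 3369 ± 796 RPMM in plasma and 1636 ± 276 RPMM in the blood cell fraction (SD, n = 4 each). With the members replaced by their sum in the same edgeR fit, the log2 fold change was -0.64 (standard error 0.15, adjusted p = 0.00632), lower in plasma in 4 of 4 cows after TMM scaling, although the RPMM were higher in plasma in 4 of 4 cows. With library totals alone the sum was called higher in plasma, at 1.02 (edgeR adjusted p = 0.00107). Without miR-486, miR-451 and miR-144 in the totals it was not called, at 0.18. The direction of the sum depended on the scaling, and no direction is given for the family as a whole. Without cow 47 the TMM-scaled sum was not called (-0.54, adjusted p = 0.0552 from the same test).

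The make-up of the family's reads does not depend on scaling, because every member of a library is divided by the same total. bta-miR-301a held 35.7% ± 1.84 of the members' reads in plasma and 75.9% ± 3.04 in the blood cell fraction (SD, n = 4 each). bta-miR-130a held 22.3% ± 4.63 in plasma and 0.584% ± 0.12 in blood cells, and bta-miR-130b held 34.4% ± 4.55 in plasma and 14.7% ± 2.91 in the blood cell fraction (SD, n = 4 each). bta-miR-301b held 7.22% ± 1.41 in plasma and 2.80% ± 0.393 in blood cells, and bta-miR-454 held 0.363% ± 0.136 in plasma and 6.04% ± 0.812 in the blood cell fraction (SD, n = 4 each). Plasma reads were thus divided mainly among bta-miR-301a, bta-miR-130b and bta-miR-130a, and blood cell reads were mainly bta-miR-301a. Each of these 5 differences had the same sign in 4 of 4 cows. For each, the exact two-sided permutation test over the paired differences gave p = 0.125 (0.125 also when adjusted over the 5), which is the smallest p that this test can give with 4 pairs, so that it cannot pass 0.05 here.

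**Figure D3:**
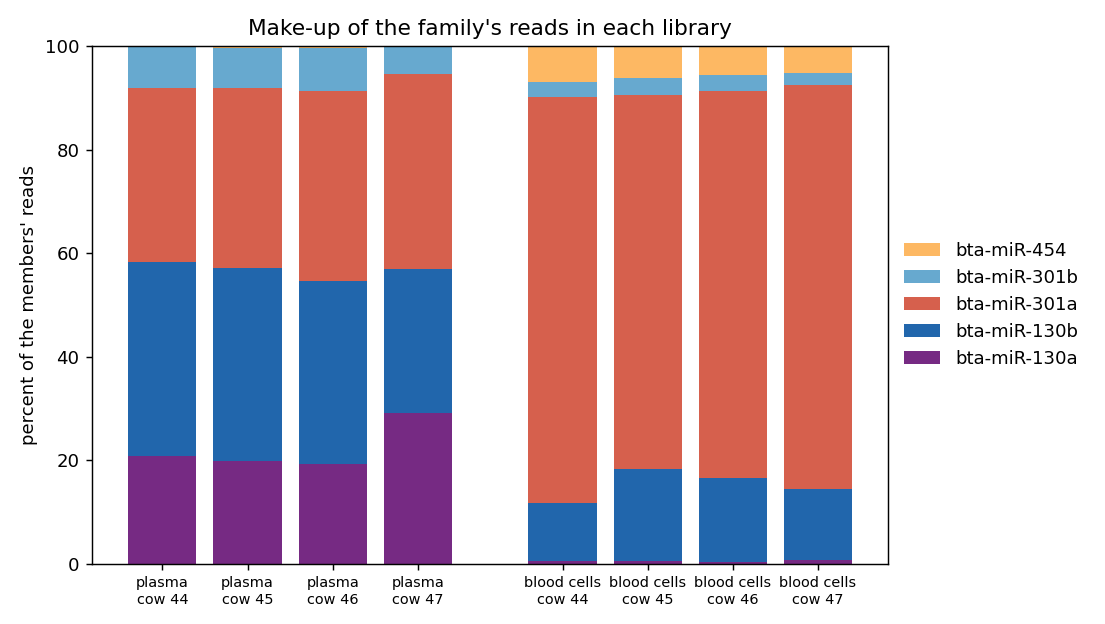
Share of each member among the reads of the 5 members, in percent, in the plasma (left) and blood cell (right) library of each cow. bta-miR-301a takes 33.7% to 37.7% of the plasma bars and 72.1% to 78.6% of the blood cell bars, and bta-miR-130a takes 19.3% to 29.2% of the plasma bars and at most 0.719% of the blood cell bars.

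The reads of 2 members within a library can be set against each other with no scaling, here for the 2 pairs that share a locus. The ratio of bta-miR-130b to bta-miR-301b reads, from chromosome 17, was 4.79, 4.84, 4.28 and 5.41 in plasma of cows 44 to 47, against 4.11, 5.56, 5.35 and 5.94 in blood cells. The ranges overlapped, and the log2 ratio in plasma minus that in blood cells was -0.11 ± 0.23 (SD over 4 cows), between -0.32 and 0.22 per cow. Per cow, the plasma ratio was 0.800 to 1.17 times the blood cell ratio and was the higher one in 1 of 4 (p = 0.5 by the exact two-sided permutation test). Although bta-miR-130b and bta-miR-301b each differed several-fold in RPMM between the fractions, their proportion to each other differed by less than its spread between cows.

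The ratio of bta-miR-301a to bta-miR-454 reads, from chromosome 19, was 124, 74.3, 74.7 and 170 in plasma of cows 44 to 47, against 11.1, 11.5, 13.2 and 15.1 in blood cells. The lowest plasma ratio was above the highest blood cell ratio. The log2 ratio in plasma minus that in blood cells was 3.04 ± 0.52 (SD over 4 cows), between 2.50 and 3.49 per cow, which is an 8.23-fold higher ratio in plasma in the geometric mean. All 4 cows had the higher ratio in plasma (p = 0.125 by the same exact permutation test, the smallest p of 4 pairs). Over all 10 pairs of members, 9 did not overlap between the fractions, and the chromosome 17 pair was the one that overlapped. Each of the 9 had p = 0.125 by the exact permutation test (0.139 after Benjamini-Hochberg adjustment over the 10). The same count was not made over pairs of all tested names, of which 87.1% were singly apart in RPMM. The count is therefore not read as a trait of the family. The widest difference was that of bta-miR-130a to bta-miR-454, with a log2 ratio that was 8.72 to 9.95 higher in plasma per cow.

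**Figure D4:**
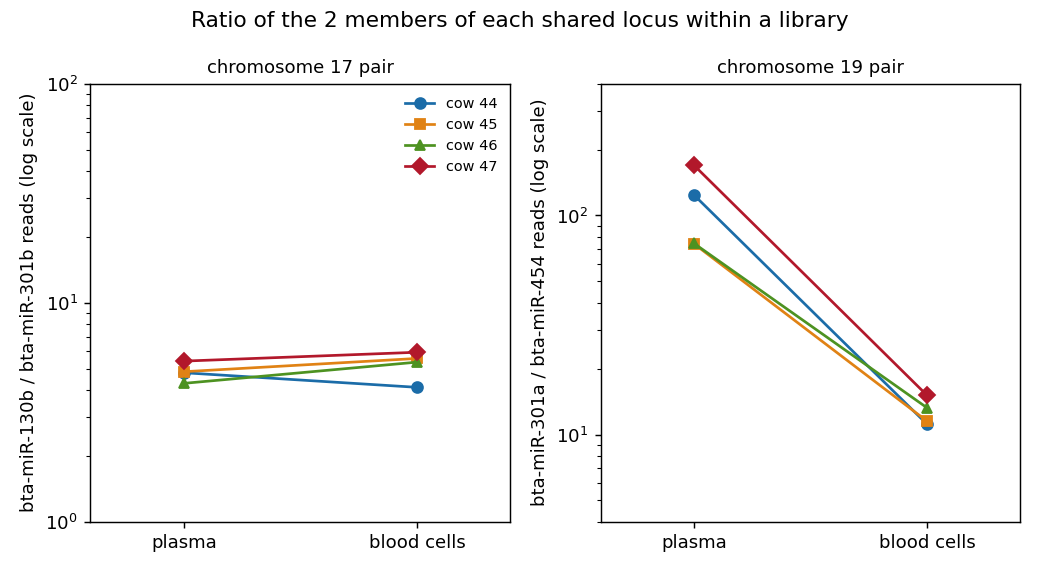
Ratio of reads of the 2 members of each shared locus within a library (log scale), in plasma and in blood cells, with a line per cow. The bta-miR-130b / bta-miR-301b lines are almost flat between 4.11 and 5.94, and the bta-miR-301a / bta-miR-454 lines all slope, with 74.3 or more in plasma and 15.1 or less in blood cells.

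The like-named members from different loci had no common level either. bta-miR-130a had 0.558, 0.530, 0.549 and 1.05 reads per read of bta-miR-130b in plasma of cows 44 to 47, against 0.0494, 0.0355, 0.0271 and 0.0527 in blood cells. This log2 ratio was 3.50 to 4.34 higher in plasma per cow. That of bta-miR-301a to bta-miR-301b was 2.21 to 2.75 lower in plasma, with ratios of 4.32 to 7.35 in plasma against 22.6 to 34.0 in blood cells. The authors allowed 1 mismatch when assigning reads to mature sequences. How far the reads of the like-named members can be told apart was not tested. When the names were summed, miR-130a with miR-130b gave 1.26 (standard error 0.20, edgeR adjusted p = 9.72e-04) as the log2 fold change. The sum of miR-301a and miR-301b gave -1.52 (standard error 0.15, edgeR adjusted p = 1.03e-04), near the value of bta-miR-301a, which has more of the reads.

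The order of the members differed between the fractions. By mean RPMM, the plasma order was bta-miR-301a, bta-miR-130b, bta-miR-130a, bta-miR-301b and bta-miR-454. In plasma, bta-miR-301a and bta-miR-130b could not be ranked, since each was the higher one in 2 of 4 libraries, and bta-miR-130b and bta-miR-130a overlapped as well, with bta-miR-130b higher in 3 of 4. The steps to bta-miR-301b and to bta-miR-454 held in 4 of 4 plasma libraries without overlap. In blood cells the order was bta-miR-301a, bta-miR-130b, bta-miR-454, bta-miR-301b and bta-miR-130a, and each step held in 4 of 4 libraries without overlap. Among all 704 names, bta-miR-301a was number 63 by mean RPMM in plasma and number 44 in blood cells, bta-miR-130b 64 and 78, bta-miR-130a 83 and 176, bta-miR-301b 116 and 120, and bta-miR-454 245 and 102. Adapter ligation favours some sequences over others, and its part in the order of different miRNAs was not tested.

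The plasma library of cow 47 had the lowest RPMM of all 5 members. It reached 85.1% of the mean of the other plasma libraries for bta-miR-130a, 62.8% for bta-miR-301a, 44.2% for bta-miR-130b, 37.8% for bta-miR-301b and 31.6% for bta-miR-454. Of all 209 tested names, 64.6% also had their lowest plasma RPMM in cow 47. After TMM scaling, 34.4% of the names did, as did 4 of the 5 members, and bta-miR-130a was then highest in cow 47, at 447 CPM against 379 to 398 in the other plasma libraries. On this scale cow 47 had 114% of the mean of the other plasma libraries for bta-miR-130a, 84.2% for bta-miR-301a, 59.4% for bta-miR-130b, 50.8% for bta-miR-301b and 42.2% for bta-miR-454. In the same library, the red blood cell miRNAs took 18.0% of the bovine miRNA reads, against 8.92% to 16.1% in the other plasma libraries. The leukocyte miRNAs together took 3.12% against 5.30% to 6.6%, and miR-122, the main liver miRNA, had 814 RPMM against 36.8 to 75. The ratio of miR-451 to miR-23a reads, used as a measure of red cell lysis, was 5.70 against 2.07 to 3.78. The part of these differences in the levels of the members was not tested.

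Among the blood cell libraries, that of cow 46 had the highest RPMM of bta-miR-130b, bta-miR-301a and bta-miR-301b. It had 153% of the mean of the other blood cell libraries for bta-miR-130b, 147% for bta-miR-301b, 131% for bta-miR-301a, 121% for bta-miR-454 and 93.1% for bta-miR-130a. Of all tested names, 24.9% had their highest blood cell RPMM in cow 46. After TMM scaling 39.2% of the names did, the largest share among the blood cell libraries. All members but bta-miR-130a were then also highest in the blood cell library of cow 46. The leukocyte miRNAs summed to 2.27% of the bovine miRNA reads of that library, against 2.29% to 2.84% in the other blood cell libraries. The red blood cell miRNAs summed to 51.6% against 48.8% to 56.1%. The leukocyte sum was thus the lowest of the blood cell libraries by a small margin, and the part of either list in the levels of the members was not tested.

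The names with the most similar profiles differed from member to member. Likeness was the Euclidean distance between profiles of log2(RPMM + 1) over the 8 libraries, each centred on its own mean, and is given as a description. bta-miR-301b and bta-miR-130b were 0.48 apart, which made bta-miR-130b the nearest name of bta-miR-301b and bta-miR-301b the second nearest name of bta-miR-130b, after miR-421 at 0.44. The third name near both was miR-378, at 0.74 from bta-miR-130b and 0.80 from bta-miR-301b. bta-miR-130a was nearest to the human homologue miR-210-3p (0.43), miR-214 (0.46) and miR-455-3p (0.59). The added 1 RPMM shrinks differences of scarce names, so that miR-214 lies near bta-miR-130a here with a log2 fold change of 9.49 in the edgeR fit. bta-miR-301a was nearest to miR-374b (0.59), miR-186 (0.60) and miR-2419-5p (0.63), and bta-miR-454 to miR-331-3p (0.94), miR-26a (1.22) and miR-197 (1.23). Apart from the chromosome 17 pair, the closest members were bta-miR-301a and bta-miR-130b at 3.38. bta-miR-454 was 4.23 from its SKA2 neighbour bta-miR-301a, at place 123 among the names ordered by their distance from bta-miR-301a. In the order of distance from bta-miR-454, bta-miR-301a was at place 56, ahead of the other members. The distances hold for 8 libraries in 2 fractions and are led by the difference between the fractions.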

How the data were processed

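Small RNA libraries of plasma and blood cells from 4 cows were made with the TruSeq kit and sequenced as single reads of 36 bases. The authors removed reads without adapter, with undetermined bases or too short, and ran sRNAbench with Bowtie 0.12.9 against bosTau4 and miRBase, allowing 1 mismatch and giving bovine names first and human homologue names second. They deposited raw read counts per mature miRNA name (565 bovine, 139 human). They also deposited a normalised signal, RPMM, with separate denominators for bovine and human names. Human names were put on the bovine scale here. A bovine read was worth 0.232 to 0.688 RPMM in plasma and 0.0690 to 0.0895 in blood cells, so a floor of 3 reads is 0.696 to 2.07 and 0.207 to 0.268 RPMM.

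Counts were tested with edgeR 4.0.16 (R 4.3.3, limma 3.58.1) as the report describes, on library totals of all 704 names, with Benjamini-Hochberg adjustment over all names tested. The standard error was taken from the F statistic, as the size of the log2 fold change over its square root. The study states edgeR's paired mode and the filter. It passed RPMM to edgeR and names GLMfit, whereas counts and the quasi-likelihood fit were used here. The code was tested on simulated data. Both libraries of a cow come from 1 animal, which is where the pairing comes from. The departures of a cow's plasma and blood cell libraries from the mean of each fraction correlated at 0.051 to 0.234 across the 209 names, against -0.174 to 0.106 for different cows. Only cow 47 (0.234) lay above the range of different cows, and the other cows lay within it. Shares within the family and ratios were compared by exact permutation tests over cows. Every member is named, whatever its values. The other names given are those within 50 kb of a member, of which there were none outside the family, the 3 names with the nearest profile, and marker miRNAs of red blood cells, leukocytes, endothelium and liver. The members and lists were chosen with earlier results of these data known. Alternatives were the fit without the block, RLE factors, library totals, totals without 3 red cell miRNAs, the likelihood ratio test, DESeq2 1.42.0, limma on log2(RPMM + 1), other filters, bovine names alone, like-named members summed and leaving out each cow with the tested names kept. Mature sequences, other arms of the hairpins and RT-qPCR were not analysed here.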

Additional observations from a re-analysis of the deposited data

Results flagged for a closer look

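Within each fraction, 26 sets of 4 values were examined for a library at a wide gap from the other 3 (Dixon's criterion at the 95% level, which chance alone meets in about 5% of sets), and 3 had one, in each case the plasma of cow 47. bta-miR-130b had 609 RPMM there, against 1333 to 1420 in the other plasma libraries. bta-miR-130a held 29.2% of the members' reads there (95% Wilson interval 28.3% to 30.1%), against 19.3% to 20.9%. bta-miR-301b held 5.13% (4.71% to 5.60%), the lowest share of the plasma libraries. The 3 are not independent, since shares of the same reads add up to the whole. Without cow 47 the log2 fold change was 0.76 for bta-miR-130b, 0.86 for bta-miR-301b and 4.67 for bta-miR-130a, and all 3 were called.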

How the results depend on the processing

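For the fold changes of the 5 members, 67 of 74 alternatives gave the same direction and side of the threshold. bta-miR-130a and bta-miR-454 were called in the same direction under all of theirs. For bta-miR-130a these include its sum with bta-miR-130b (1.26), which does not test bta-miR-130a alone. The like-named sums also count as the same for bta-miR-130b and bta-miR-301a, again without testing a member alone. bta-miR-130b lost its call without the replicate block (0.58) and with the likelihood ratio test (0.59), and leaving out each cow gave 0.38 to 0.76. bta-miR-301a lost its call with library totals alone (-0.068) and with limma on log2(RPMM + 1), which also uses library totals (-0.068). bta-miR-301b turned to -1.52 when summed with bta-miR-301a, by construction, as bta-miR-301a has more reads. The family sum turned to 1.02 with library totals, 1.02 with limma and 0.18 without miR-486, miR-451 and miR-144 in the totals. It was not called with the likelihood ratio test (-0.64), and leaving out each cow gave -0.73 to -0.54. The paired fit changed no other call of a member. Names called over the whole table numbered 178 (95 higher and 83 lower in plasma), against 331 (178 and 153) without the filter, where 704 names were tested, and 52 were lower with library totals and 52 with limma, where 72.9% of calls were higher in plasma against 53.4% with TMM. All 60 alternatives of the ratios and all 25 of the shares kept their sign. With 4 cows, a permutation test cannot pass 0.05, so this says nothing about significance. The 15 to 53 reads per plasma library limit the precision of bta-miR-454 in plasma.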
